A study of Homo sapiens with 6 samples.

Results

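The genes described here are 10 genes of cytosolic DNA sensing, taken by symbol from the 60483 gene identifiers of the count table. They are the sensors CGAS, IFI16, AIM2, ZBP1 and DDX41, the adaptor STING1, the kinase TBK1, the transcription factor IRF3, and TREX1 and BANF1, which limit the pathway. They were chosen by symbol with the fold changes of CGAS and IFI16 in these libraries already known, so their differences between the genotypes are a description. Whether the fit over all genes called them is stated below, but no p-value is given for them. The calls helped choose which genes have promoter sequences, neighbours, overlaps and similar profiles described. STING1 is among these by a call that few alternative analyses kept. RNA-seq was carried out on HAP1 cells, a near-haploid human line derived from chronic myelogenous leukemia, and on 1 HELLS KO clone made from that line and bought from a supplier, which carries an insertion of 1 base in exon 3 of HELLS. Each genotype was represented by 3 libraries of total RNA from cells in normal growth. HELLS KO was 1 clone compared with 1 parental line, so the knockout and other changes in that clone cannot be told apart. The labels do not say whether the libraries of a genotype came from separate cultures, and the errors given here rest on the spread between libraries.

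In cytosolic DNA sensing, cGAS binds double-stranded DNA outside its normal compartment, as in a ruptured micronucleus, and makes the messenger cyclic GMP-AMP. The messenger binds STING at the endoplasmic reticulum, STING moves to the Golgi and brings in the kinase TBK1, and TBK1 phosphorylates IRF3, which then switches on type I interferon genes. IFI16 and AIM2 belong to the PYHIN family, which binds DNA through HIN domains. HELLS is a chromatin remodeller of the SNF2 family that has been linked to DNA methylation in other systems.

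Total counts lay between 13641237 and 24400187 per library, and replicate 3, which carries a batch label in both genotypes, was the deepest library of each. The limit set by a count of 0, which is 3 counts, was worth between 0.123 and 0.218 CPM (the count scaled to a fixed library size, as edgeR gives it with TMM normalization), which covers counting error only. HELLS itself was at 121 ± 28.0 CPM for HAP1 (SD, n = 3), against 103 ± 10.7 CPM for HELLS KO (SD, n = 3), so the gene counts do not show the insertion. HAP1 arose from a myeloid leukemia, but myeloid and lymphoid markers were low. The 16 myeloid markers summed to between 2.39 and 3.79 CPM in HAP1 and between 2.52 and 3.64 in HELLS KO, with SPI1, CEBPE and TYROBP at 0 in every library. The 10 lymphoid markers summed to between 2.50 and 4.87 CPM and between 2.59 and 3.85. The 6 endothelial markers summed to at most 1.45 CPM in any library. The 11 erythroid and megakaryocyte markers summed to between 153 and 164 CPM in HAP1 and between 119 and 126 in HELLS KO, with PF4, GP9 and HBG1 among those at 0 in every library. The 8 fibroblast markers summed to between 146 and 157 CPM in HAP1 and between 64.8 and 80.8 in HELLS KO, with DCN and LUM at 0 in every library. Of these last 2 lists, 3 of 11 and 4 of 8 genes passed edgeR's filter on low counts, so the sums rest on few genes. The part of these lists in the differences below was not tested.

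The RefSeq promoter windows of the genes, from 250 bases before to 50 after each start on GRCh38.p14, differed in how many CpG dinucleotides they hold. Windows were found for 6 of the 10 genes, IFI16, AIM2, TREX1, DDX41, TBK1 and BANF1, and not for CGAS, STING1, IRF3 and ZBP1. The windows below are shown because IFI16 fell, AIM2 was not detected, and TBK1 and DDX41 were well detected and not called. Each is printed 5′ to 3′ on the strand of its gene, with CpG in capitals. The IFI16 windows are chr1:159008741-159009040 and chr1:159009657-159009956 on the + strand, the AIM2 window is chr1:159076717-159077016 on the - strand, the TBK1 window is chr12:64451870-64452169 on the + strand and the DDX41 window is chr5:177516912-177517211 on the - strand.
IFI16, first start: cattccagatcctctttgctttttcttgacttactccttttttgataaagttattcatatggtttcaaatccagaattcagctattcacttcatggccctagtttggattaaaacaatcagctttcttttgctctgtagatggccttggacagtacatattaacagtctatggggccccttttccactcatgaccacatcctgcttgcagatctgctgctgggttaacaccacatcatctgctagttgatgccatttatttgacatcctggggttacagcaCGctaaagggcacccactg
IFI16, second start: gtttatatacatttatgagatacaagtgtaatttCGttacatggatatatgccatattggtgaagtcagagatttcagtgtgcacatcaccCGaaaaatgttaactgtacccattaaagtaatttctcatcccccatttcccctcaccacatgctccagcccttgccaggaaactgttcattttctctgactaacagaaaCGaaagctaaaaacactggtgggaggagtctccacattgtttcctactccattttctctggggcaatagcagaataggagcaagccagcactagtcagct
AIM2: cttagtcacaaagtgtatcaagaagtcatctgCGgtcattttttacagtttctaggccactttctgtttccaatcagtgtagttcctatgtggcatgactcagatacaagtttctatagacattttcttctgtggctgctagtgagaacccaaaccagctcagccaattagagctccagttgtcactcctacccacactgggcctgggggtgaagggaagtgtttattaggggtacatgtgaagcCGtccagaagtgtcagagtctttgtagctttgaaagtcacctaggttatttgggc
TBK1: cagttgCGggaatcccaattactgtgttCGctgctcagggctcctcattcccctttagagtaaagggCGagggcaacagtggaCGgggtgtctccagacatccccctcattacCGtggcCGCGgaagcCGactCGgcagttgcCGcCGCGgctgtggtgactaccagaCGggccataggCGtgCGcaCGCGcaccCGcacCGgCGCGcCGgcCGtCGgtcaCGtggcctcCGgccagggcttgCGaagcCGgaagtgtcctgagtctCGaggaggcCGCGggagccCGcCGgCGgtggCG
DDX41: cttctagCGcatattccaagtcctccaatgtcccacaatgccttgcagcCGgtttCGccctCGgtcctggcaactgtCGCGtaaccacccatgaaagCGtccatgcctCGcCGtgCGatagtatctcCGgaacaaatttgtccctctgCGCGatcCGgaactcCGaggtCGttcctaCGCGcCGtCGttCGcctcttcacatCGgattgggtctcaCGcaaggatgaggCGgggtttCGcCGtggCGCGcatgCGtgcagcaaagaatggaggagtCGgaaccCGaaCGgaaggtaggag

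The 2 IFI16 windows held 1 and 3 CpG, the AIM2 window 2 and the TREX1 window 3, against a median of 14 over 35116 promoters of the same length. The TBK1 window held 35, the DDX41 window 32 and the BANF1 window 23. Of all promoters, 3.96% had fewer CpG than the first IFI16 window, 18.2% fewer than the second and 85.9% fewer than TBK1. Both IFI16 windows lie inside the gene as GENCODE draws it, 9023 and 9939 bases downstream of the outermost annotated start, and hold 46 and 65 exonic bases. The AIM2 window is likewise inside its gene, 111077 bases from the outermost start. So is the BANF1 window, 275 bases downstream of the outermost start, and all 300 of its bases are exonic. DNA methylation was not measured in these libraries.

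Each window was searched on both strands for 4 motifs. The interferon response element (GAAA, any 2 bases, then GAAA), present in 3.57% of all promoters, occurred 1 time in the AIM2 window. The E-box CACGTG, present in 7.26%, occurred 1 time in the TBK1 window. The gamma activated site TTCNNNGAA (7.66% of promoters) and the GC box GGGCGG (45.0%) were not among the letters of any of the 7 windows.

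CGAS and IFI16 were far lower in HELLS KO, STING1 was 2.01-fold lower, by a call that few alternative analyses kept. The means of DDX41, TBK1, IRF3 and BANF1 differed by less than the spread between libraries, and AIM2, ZBP1 and TREX1 had no counts in any library. Along the pathway, the lower counts were at CGAS, IFI16 and the adaptor, while the kinase and the transcription factor that follow were not called. Of the 10 genes, 7 passed edgeR's filter on low counts and 3 were not tested. Calls required an adjusted p under 0.05 and a change of at least 1 on the log2 scale. Of the 7, 3 were called lower and 0 higher, where 0.72% of the 17925 genes tested were called lower, 1.5% higher and 2.22% in either direction. Since the genes were chosen for this contrast, nothing is read from that count.

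**Figure D1:**
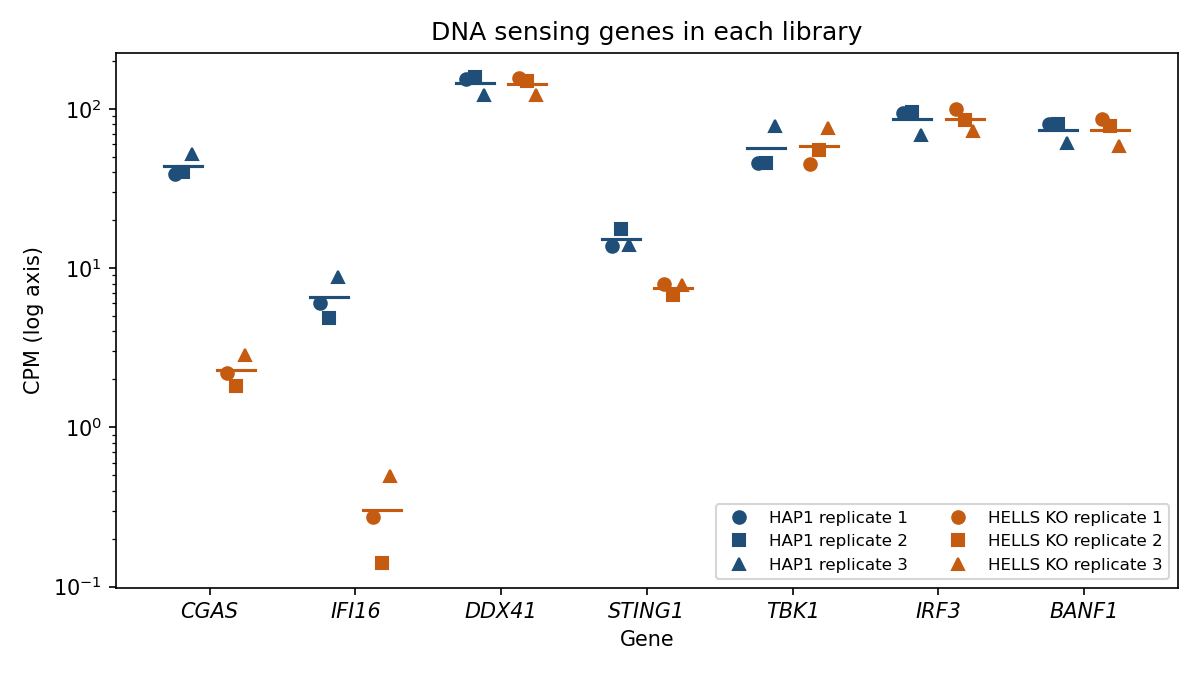
Level of each detected DNA sensing gene in each library, as CPM on a log axis. Points are libraries, with a symbol for each replicate number, and horizontal lines are means of 3 libraries. The HELLS KO points lie below all HAP1 points for CGAS, IFI16 and STING1, and the genotypes overlap for DDX41, TBK1, IRF3 and BANF1.

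Among the sensors, CGAS encodes the enzyme that makes cyclic GMP-AMP (chromosome 6, 73413515 to 73452297 on the - strand of GRCh38). It had counts of 557, 553 and 1246 in HAP1 replicates 1, 2 and 3, against 32, 26 and 69 in HELLS KO. Every HELLS KO library was far below every HAP1 library, and none of them was at 0. Over all genes tested, 5.09% had every HELLS KO library below every HAP1 library. The mean was 43.8 ± 7.09 CPM (SD, n = 3) for HAP1, against 2.28 ± 0.512 CPM for HELLS KO (SD, n = 3), a log2 fold change of -4.24 (standard error 0.24), or 18.9-fold. In replicates 1 and 2, which carry no batch label, the log2 fold change was -4.32, and in replicate 3, with 1 library of each genotype, the log2 ratio was -4.20. In bulk RNA, fewer cells that express a gene and less RNA per cell cannot be told apart.

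IFI16 encodes a PYHIN protein that binds DNA in the nucleus and the cytosol and acts upstream of STING (chromosome 1, 158999968 to 159055155 on the + strand). It had counts of 86, 67 and 210 in HAP1, against 4, 2 and 12 in HELLS KO. Every HELLS KO library was below every HAP1 library, as for 5.09% of all genes tested. HELLS KO replicate 2 was under the limit of 3 counts. The mean was 6.56 ± 1.99 CPM (SD, n = 3) for HAP1, against 0.303 ± 0.178 CPM for HELLS KO (SD, n = 3), a log2 fold change of -4.32 (standard error 0.47). In replicates 1 and 2 alone it was -4.68, and the log2 ratio within replicate 3 was -4.15. At so few counts the HELLS KO level is known less well than that of CGAS, although the fold changes were alike.

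DDX41, a helicase that has been described as a DNA sensor and also works in splicing (chromosome 5, 177511577 to 177516961), had counts of 2195, 2170 and 2926 in HAP1, against 2263, 2138 and 2982 in HELLS KO. The genotypes overlapped, and the log2 fold change was -0.02 (standard error 0.15). AIM2, the PYHIN sensor that builds an inflammasome (chromosome 1, 159061599 to 159187843), and ZBP1, which binds nucleic acid in the Z form and can lead to necroptosis (chromosome 20, 57603846 to 57620576), had 0 counts in all 6 libraries. Each library allows up to 0.218 CPM of either gene, so no difference between the genotypes was detectable at this depth. The remaining PYHIN genes, MNDA and PYHIN1, did not pass the filter.

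STING1 encodes the adaptor of the pathway (chromosome 5, 139475533 to 139482935 on the - strand). It had counts of 196, 242 and 337 in HAP1, against 115, 97 and 191 in HELLS KO, which is 13.8, 17.6 and 14.0 CPM against 7.90, 6.79 and 7.84 CPM. The groups did not overlap, which was also the case, with HELLS KO lower, for 5.09% of all genes tested. The mean was 15.1 ± 2.13 CPM (SD, n = 3) for HAP1, against 7.51 ± 0.626 CPM for HELLS KO (SD, n = 3), a log2 fold change of -1.01 (standard error 0.19). This was the smallest of the 129 decreases called, only just past the cut-off of 1. The call was kept in 2 of 17 alternative analyses, DESeq2 and a term for the labelled batch. It was lost when any 1 of the 6 libraries was left out, with log2 fold changes between -1.07 and -0.89. In each of those fits edgeR's adjusted p was above 0.05. Blocking on replicate number lost the call on size alone. The value there was -0.998 (standard error 0.17), just short of the cut-off of 1, while edgeR's adjusted p stayed under 0.05. The fold change was negative in all 17.

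TBK1, the kinase that STING recruits (chromosome 12, 64452090 to 64502114), had counts of 647, 627 and 1885 in HAP1, against 659, 786 and 1851 in HELLS KO. The log2 fold change was 0.05 (standard error 0.28). IRF3, the transcription factor it phosphorylates (chromosome 19, 49659569 to 49665875), had counts of 1343, 1307 and 1650 in HAP1, against 1461, 1212 and 1756 in HELLS KO. The log2 fold change was 0.00 (standard error 0.18). In both genes the genotypes overlapped, and the replicates of a genotype differed more than the genotype means. Of the IRF3 exonic bases, 19.3% also lie in exons of BCL2L12 on the other strand, and the strand setting of the counting is not given in the sources used here.

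Of the factors that limit the pathway, BANF1 encodes a small protein that coats DNA and keeps cGAS off it (chromosome 11, 66002228 to 66004149). It had counts of 1138, 1106 and 1475 in HAP1, against 1256, 1108 and 1421 in HELLS KO. The genotypes overlapped, at a log2 fold change of 0.00 (standard error 0.19). TREX1 encodes the exonuclease that degrades DNA in the cytosol (chromosome 3, 48465811 to 48467645). It had 0 counts in every library, but 100% of its exonic bases are also exonic in ATRIP on the same strand. ATRIP had counts of 9, 11 and 28 in HAP1, against 11, 4 and 21 in HELLS KO. A read on TREX1 therefore also lies on ATRIP, and whether such reads were dropped in counting was not tested. The count of 0 gives no level for TREX1.

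**Figure D2:**
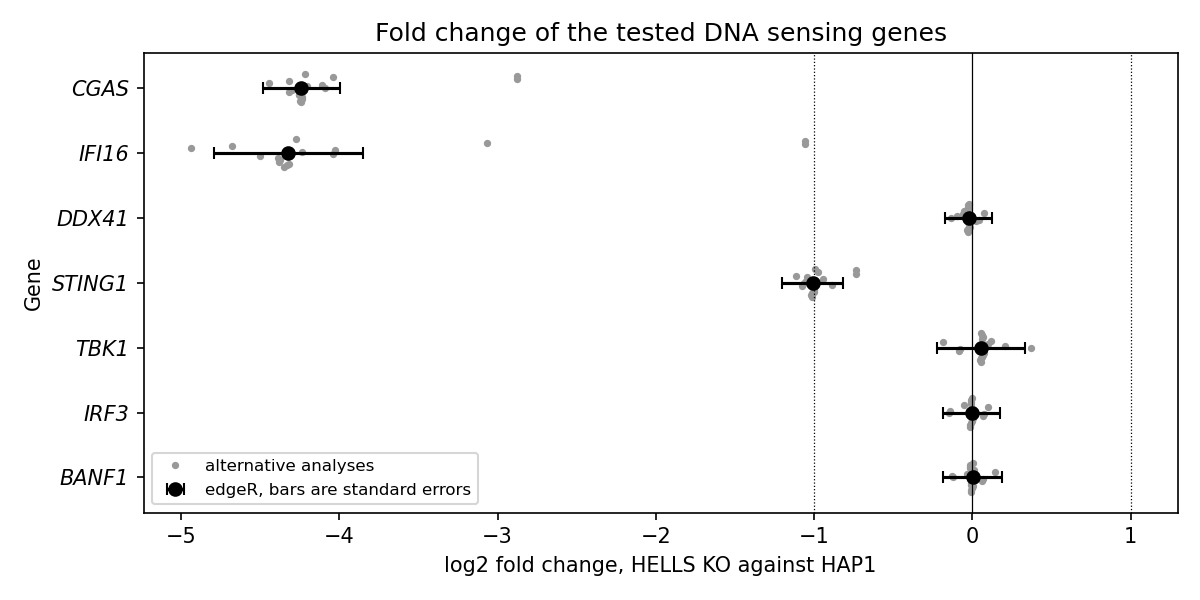
Log2 fold change of the 7 tested genes, HELLS KO against HAP1. Black points are edgeR's values with bars of 1 standard error, small grey points are the alternative analyses, and dotted lines mark the cut-offs at -1 and 1. CGAS (-4.24) and IFI16 (-4.32) lie far past the cut-off, STING1 (-1.01) lies on it, and the 4 others lie near 0. The grey points at -2.88 for CGAS and -1.06 for IFI16 are fits on log2(FPKM + 1), a scale that understates changes of low genes.

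The calls of CGAS and IFI16 under other settings describe the contrast that chose these genes. CGAS was called in 17 of 17 alternatives and IFI16 in 16 of 16. IFI16 passed the filter on low counts through HAP1, and a filter of at least 10 counts in every library removed it. DDX41, TBK1, IRF3 and BANF1 were called in 0 of 17. Their log2 fold changes lay between -0.13 and 0.07 for DDX41, between -0.15 and 0.10 for IRF3, between -0.13 and 0.14 for BANF1 and between -0.18 and 0.37 for TBK1, the widest range of the 4.

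Replicate 3 differed from replicates 1 and 2 in the same direction in both genotypes for every tested gene but STING1, whose ratios were 0.895 in HAP1 and 1.07 in HELLS KO. The CPM of TBK1 in replicate 3 was 1.72 times the mean of replicates 1 and 2 in HAP1 and 1.52 times in HELLS KO. For CGAS the ratios were 1.31 and 1.41, and for IFI16 1.60 and 2.38. BANF1, at 0.766 and 0.712, DDX41, at 0.781 and 0.802, and IRF3, at 0.726 and 0.779, were instead lower in replicate 3. These 3 genes had the most counts per base of the 7, up to 0.897 for BANF1. Duplicated reads had been removed before counting, and the part of that step in these shifts was not tested.

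Per length, as mean FPKM (fragments scaled to gene length and library size), the order in HAP1 was BANF1 at 44.4 ± 6.80 (SD, n = 3), DDX41 at 31.5 ± 4.52, IRF3 at 22.4 ± 4.05, TBK1 at 11.7 ± 3.84, CGAS at 10.4 ± 1.60, STING1 at 3.88 ± 0.561 and IFI16 at 1.22 ± 0.361. Only TBK1 and CGAS, neighbours in that order, overlapped between libraries. In HELLS KO the order was BANF1 at 44.2 ± 8.44, DDX41 at 30.9 ± 3.71, IRF3 at 22.2 ± 3.66, TBK1 at 12.1 ± 3.29, STING1 at 1.92 ± 0.173, CGAS at 0.541 ± 0.125 and IFI16 at 0.0563 ± 0.0334 FPKM, and no neighbours overlapped. In this order CGAS went from next to TBK1 to below STING1. Among the 24956 genes with an FPKM value, CGAS went from percentile 70.5 to 27.7, IFI16 from 39.3 to 4.43 and STING1 from 54.6 to 45.2.

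The other genes of the pathway were taken from lists by role, 163 genes in all, of which 138 were tested. None was called lower (0 of 138, where the background is 0.72%) and 1, MX1, was called higher (background 1.5%), while 7 of 138 had an unadjusted p under 0.05 in edgeR, against 1181 of 17925 over all genes. DESeq2 called 2 of these genes lower, where its background is 0.961%, and 1 higher, where it is 1.68%. With the replicate block edgeR called 3 lower, where the background is 1.49%, and 1 higher, where it is 2.03%. Their median log2 fold change was 0.02, against 0.01 over all genes tested. Of the 138, 129 lay within 0.5 of 0 on the log2 scale, as did 86.5% of all genes tested.

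Partners of the sensors and other DNA sensors had 0 of 21 tested genes called, with log2 fold changes between -0.02 and 0.18. The DNA-dependent kinase PRKDC had a log2 fold change of 0.03 (standard error 0.25) and the helicase DHX9 one of 0.00 (standard error 0.12). The 26 genes of STING trafficking and modification lay between -0.35 and 0.44, with SURF4, a cargo receptor that returns STING to the endoplasmic reticulum, at -0.04 and SCAP at -0.02. Of the genes that move or break down cyclic dinucleotides, 8 were tested and 0 called, between -0.74 and 0.19, with LRRC8E, a channel subunit, the lowest (counts of 61, 53 and 80 in HAP1, against 28, 35 and 60 in HELLS KO, edgeR adjusted p = 0.50). Those with the highest CPM were the folate carrier SLC19A1, which also imports cyclic dinucleotides, at -0.09, and the exporter ABCC1, at -0.10. The 22 partners of the kinase and transcription factor included TRAF3 at -0.17 and STAT6 at -0.12, and 0 were called. They lay between -0.69 and 0.25, and IKBKE, the kinase most closely related to TBK1, was the lowest (adjusted p = 0.84 from edgeR). The 19 nucleases and other limiting factors lay between -0.14 and 0.19, with the RNA-editing enzyme ADAR at -0.05 and the lamina protein TMPO at 0.05.

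Of the effectors of the inflammasome and necroptosis, 6 of 11 were tested and 0 called, with RIPK1 at a log2 fold change of 0.24 and CASP8 at 0.02. PYCARD, the adaptor that AIM2 binds, had counts of 168, 172 and 145 in HAP1, against 110, 48 and 69 in HELLS KO, and it was called lower only in the fit with the replicate block, at a log2 fold change of -1.18 (adjusted p = 0.039 from edgeR with the block). It is named here because of that call, after its values had been seen. The RNA sensing branch, which meets the DNA branch at TBK1, had 0 of 7 tested genes called, with MAVS at 0.01 and TRIM25 at 0.07. They lay between -0.13 and 0.69, and IFIH1, a sensor of double-stranded RNA, was the highest (adjusted p = 0.41 from edgeR). Every HELLS KO library was above every HAP1 library for IFIH1, as for 4.99% of all genes tested. LRRC8E, IKBKE and IFIH1 were picked as extremes of their lists once values were known.

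At the end of the pathway, IFNB1, which IRF3 activates, had 0, 0 and 2 counts in HAP1 and 0 in HELLS KO. Of 29 tested interferon and target genes, 1 was called, with TYK2 at a log2 fold change of 0.04 and PML at -0.08. MX1, an interferon-induced GTPase against viruses, had counts of 4, 1 and 10 in HAP1, against 40, 42 and 103 in HELLS KO. MX1 had every HELLS KO library above every HAP1 library, as did 4.99% of all genes tested. Its log2 fold change of 3.56 had a standard error of 0.52 and an edgeR adjusted p = 0.014, and the call was lost without replicate 1 of HAP1 and without replicate 1 or 2 of HELLS KO (adjusted p = 0.068, 0.054 and 0.075), where the log2 fold changes were 3.58, 3.68 and 3.65. IFITM2 and OAS2, named after their values were seen, were called lower by DESeq2 and by edgeR with the replicate block. With the block they were at -1.91 (adjusted p = 0.011 from edgeR) and -1.36 (adjusted p = 0.0099). A term for the labelled batch in edgeR also gave both calls, at -1.89 and -1.35. OAS2 was called as well with replicates 1 and 2 alone and without HELLS KO replicate 3. The edgeR fit that gives the values reported called neither, at -1.87 (adjusted p = 0.31) and -1.32 (adjusted p = 0.14).

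**Figure D3:**
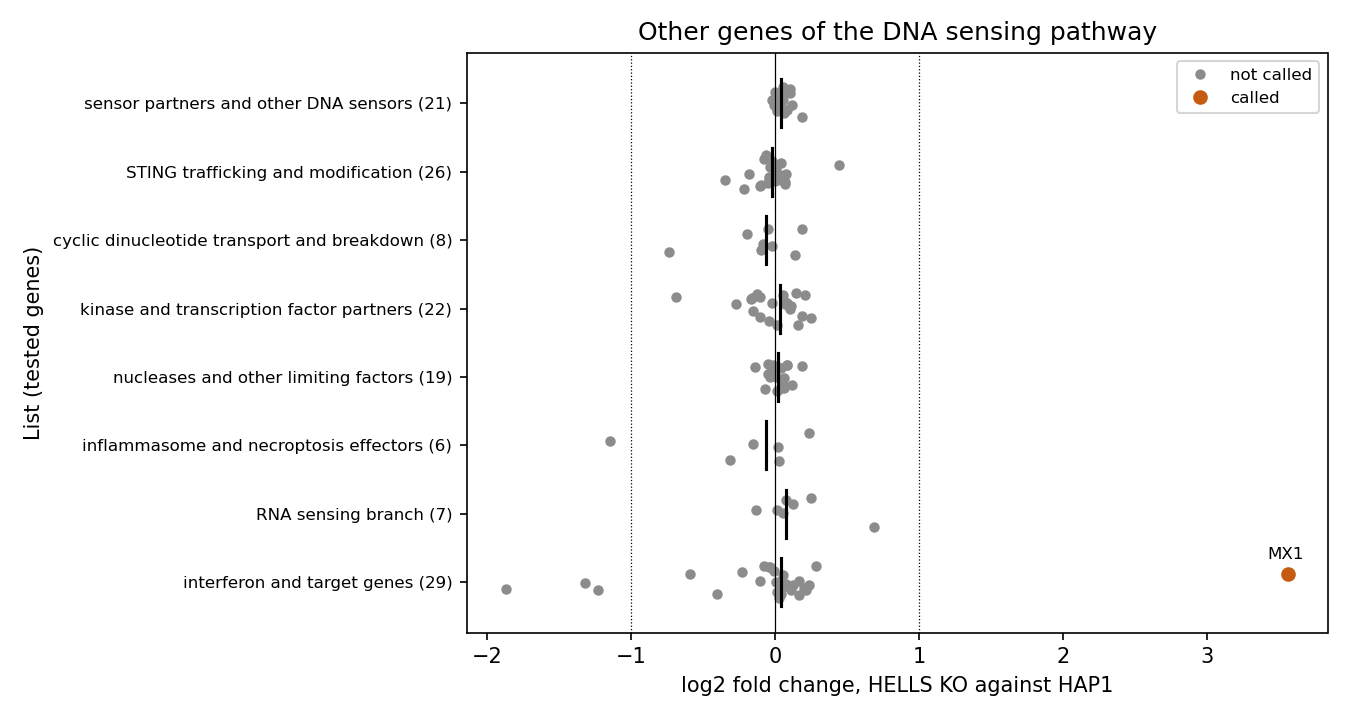
Log2 fold change, HELLS KO against HAP1, of 138 tested pathway genes other than the 10 described here, by list. Grey points are genes that were not called, the orange point is MX1, black bars are list medians and dotted lines mark the cut-offs at -1 and 1. The medians lie near 0, and genes past -1 without a call are in the lists of inflammasome effectors and interferon targets.

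The nearest tested genes on the chromosome, on each side of the 3 called genes, were not called. Closer genes that did not pass the filter could not be called, among them AIM2 and PYHIN1 beside IFI16 and DDX43, which overlaps CGAS. The nearest tested genes of CGAS were RPL39P3, at a log2 fold change of 0.07, and MTO1, which lies 9281 bases away and was at -0.08 (standard error 0.13). Those of IFI16 were HSP90AA3P, 474130 bases away and at 0.06, and DUSP23, 725777 bases away and at -0.06. Those of STING1 were DNAJC18 at -0.05 and UBE2D2 at -0.03. Farther out, PROB1 was at -0.79 (standard error 0.29, edgeR adjusted p = 0.52) and SLC23A1 at -0.80 (standard error 0.42, adjusted p = 1.0), the same direction as STING1. Within 1 Mb, 0 of 10 tested genes around CGAS, 0 of 5 around IFI16 and 0 of 27 around STING1 were called. KCNQ5, near CGAS, was at -2.28 (standard error 0.75, edgeR adjusted p = 0.39).

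Some genes overlap or share sequence with the 3 called genes. Of the CGAS exonic bases, 4.31% also lie in exons of DDX43 on the other strand, which had counts of 2, 4 and 5 in HAP1, against 0, 0 and 1 in HELLS KO. Of the IFI16 exonic bases, 8.03% lie in exons of PYDC5 on the other strand, a gene not used here. The STING1 exons overlap no other gene. Of the stretches of 31 bases in their transcripts, 11.2% for CGAS, 8.11% for IFI16 and 5.47% for STING1 also occur in transcripts of another gene.

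The genes with the profile most like each called gene, by the root mean square difference of centred log2 CPM over 6 libraries, were on other chromosomes. For CGAS they were GSAP (0.110), IFI16 (0.245) and PTPRN2 (0.278). GSAP was at 2.35 ± 0.260 CPM for HAP1 (SD, n = 3) and at 0.0137 CPM for HELLS KO, under the limit of 3 counts. Its log2 fold change was -6.53, against -4.24 for CGAS. PTPRN2 was at 27.7 ± 0.565 CPM for HAP1, against 1.67 ± 0.154 CPM for HELLS KO (SD, n = 3). For IFI16 they were RAB39B (0.208), CGAS (0.245) and GSAP (0.312). CGAS and IFI16 were chosen with their large decreases known, and that difference between the genotypes enters this measure, so their closeness is a description only. The 2 prior counts also pull profiles together where counts are low. For STING1 they were LINC01159 (0.145), MIR4733HG (0.147) and FBXO36 (0.158), at log2 fold changes of -1.08, -1.08 and -1.12. Of these, FBXO36 was called and the others were not. STING1 was among neither of the other lists.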

How the data were processed

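The authors prepared directional libraries from total RNA, sequenced read pairs, aligned them to GRCh38 with STAR 2.7.3a, dropped duplicates and alignments of mapping quality below 20, and deposited raw counts per gene from featureCounts 2.0.6 (versions from the submitters' processing notes). They also deposited FPKM values of 24956 genes, which were recomputed from the counts within 0.1%. The annotation used for counting and its strand setting are not given in the sources used here. Identifiers without version were matched to GENCODE release 44 (56321 of 60483), which gave symbols and coordinates. RefSeq (GRCh38.p14) gave the promoter windows.

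The quasi-likelihood test of edgeR 4.0.16 (R 4.3.3) was run on the counts of all 6 libraries after filterByExpr and TMM, with Benjamini-Hochberg adjustment and no replicate block. Calls required an adjusted p under 0.05 and a log2 fold change of at least 1 either way. Standard errors are the size of edgeR's log2 fold change divided by the square root of its F statistic. The dispersion behind that statistic draws on all genes. The steps were tested on simulated data. Deviations of same-numbered replicates from their genotype means had correlations across genes of 0.42, 0.20 and 0.78 for replicates 1, 2 and 3. The correlation was 0.59 between HAP1 replicate 2 and HELLS KO replicate 1, and 0.33 between HAP1 replicate 1 and HELLS KO replicate 2. Only replicate 3 was closest to its own number in both genotypes. The numbers were treated as pairs in the fit with a replicate block, an alternative to the unpaired fit that gives the values reported. Alternatives were DESeq2 1.42.0, limma 3.58.1 on log2 FPKM, other scaling and filters, a replicate block, a batch term, and each library left out. The genes and lists were chosen with earlier results of these data known. Named pathway genes were the 2 with the highest mean CPM of each list and those called. Of the marker lists, 1 gene is not reported here by name.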

Additional observations from a re-analysis of the deposited data

How the results depend on the processing

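Over all genes, 129 were lower and 269 higher in HELLS KO. These counts became 244 and 426 with DESeq2, 200 and 415 with no filter on low counts, 48 and 29 with a minimum of 10 counts per library, 52 and 146 with limma on log2(FPKM + 1), and 58 and 150 with limma at a mean of at least 0.5 FPKM. The number lower was 267 with the replicate block, 285 with a term for the labelled batch and 219 with replicates 1 and 2 alone. Leaving out 1 library gave between 40 and 176 genes lower and between 112 and 273 higher, the fewest without HELLS KO replicate 2.

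Of the DNA sensing genes, 3 were lower, and 1 (CGAS) was with at least 10 counts in every library, a filter that removes IFI16. STING1 decided the other differences, since it was not called in 15 of 17 alternatives. With the replicate block, which treats same-numbered replicates as pairs, its log2 fold change was -0.998 against -1.01 without it. STING1 then missed only the cut-off on size, and the block changed no other call among the 10 genes. Of the pathway genes, 0 were lower, against 2 with DESeq2, 3 with the replicate block, 2 with the batch term and 1 with replicates 1 and 2 alone, and between 0 and 1 when 1 library was left out. MX1, the 1 higher gene, was removed by the filter of 10 counts in every library and by the minimum of 0.5 FPKM, which left 0 higher. It was not called (0) with limma on log2(FPKM + 1), and gave between 0 and 1 when 1 library was left out. The alternative that divides counts by 2 was chosen after seeing the data. The cause of these shifts was not tested. Depth limits IFI16 in HELLS KO, at 4, 2 and 12 counts, and AIM2 and ZBP1, at 0.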

Other observations

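HBB, the adult beta-globin gene and one of the erythroid markers, had 0, 0 and 330 counts in HAP1 replicates 1, 2 and 3 and 0, 0 and 269 in HELLS KO, so it was detected only in the replicate that carries the batch label, in both genotypes. In every library, between 56.8% and 62.0% of the counts from 1 to 20 were even numbers. With all counts divided by 2 and rounded up, CGAS and IFI16 kept their calls and STING1 lost its call.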
